A study of Mus musculus with 17 samples.

Results

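The comparison set 4 forestomachs of male mice given benzo(a)pyrene at 50 mg/kg of body weight per day against 5 forestomachs of male mice given olive oil, the solvent, alone. The arrays were taken by their dose labels, 9 of the 17 arrays of the series, which also held 4 arrays at 25 mg/kg and 4 at 75 mg/kg. All animals were MutaTMMouse, a transgenic strain that carries a bacterial lacZ reporter for mutation assays, and were 24 to 26 weeks old. Benzo(a)pyrene in olive oil, or the oil, was given by gavage on each of 28 days, and the forestomach was taken 72 hours after the last dose. The protocol named 5 animals per group, and the 50 mg/kg group was measured here on replicates 12, 13, 14 and 15, with the olive oil group as control replicates 1 to 5. RNA from random sections of the forestomach, 1 sample per array, was labelled with Cy5 and hybridised beside Cy3-labelled RNA pooled from 11 mouse cell lines. Values are log2 ratios of forestomach over this pool, so a ratio below 0 means a lower normalized signal than that of the pool. The dyes were not swapped on any array, so transcript level and dye bias cannot be told apart in a single ratio.

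Benzo(a)pyrene is a polycyclic aromatic hydrocarbon formed when organic matter burns. It binds the aryl hydrocarbon receptor (AHR), which turns on cytochrome P450 genes of the Cyp1 family, and these enzymes turn it into diol epoxides that form bulky adducts with DNA. Damaged DNA activates p53, which drives genes of cell cycle arrest and apoptosis. The forestomach, the upper compartment of the rodent stomach, has a keratinised squamous epithelium and is a known target organ for tumours after oral benzo(a)pyrene in mice.

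In the forestomach channel 42.0% to 47.2% of probes stood well above background on the 50 mg/kg arrays, and 39.8% to 48.4% on the controls. The median Cy5 spot signal was 80.5 to 92 in the 50 mg/kg group and 75.5 to 89 in the controls, over a median local background of 67 to 71 and of 64 to 68. The tissue label was checked against its defining genes. Krt5, Krt14, Krt1, Krt10, Krt13, Krt4, Lor and Ivl, genes of the basal and the cornifying layers, were well above background on all 9 arrays, and the parietal cell gene Atp4a of the glandular stomach on 0 of the 9. Another parietal cell gene, Atp4b, was well above background on 2 of 4 treated arrays and 1 of 5 controls. Other genes of the glandular stomach were measured as well. The mucosal peptide gene Tff1 was well above background on 4 of 4 treated arrays and 4 of 5 controls. Gkn2 was so on 4 of 4 and 3 of 5, and Gkn1 on 1 of 4 and 4 of 5. The arrays lay on 3 slides that held 1, 2 and 1 arrays of the 50 mg/kg group and 2, 2 and 1 controls. The number of arrays limits the precision; per the labels the samples of a group are biological replicates.

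Some arrays stood apart from their group. Control replicate 2 was high in genes of blood and lymphoid cells: the mean log2 ratio over 6 B cell and plasma cell genes was 3.02 above the control mean on this array, against -1.36 to -0.32 on the other controls. The mean over 4 red blood cell genes was 2.55 above the control mean on the same array, and that over 23 proliferation genes 0.70 above it. Among the 50 mg/kg arrays, replicate 12 was highest in keratins and alarmins, replicate 13 had the highest B cell and red blood cell means (0.84 and 0.94), and replicate 15 was lowest in interferon response and antigen presentation genes.

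At 50 mg/kg, 10 of 21382 genes tested passed an adjusted p of 0.05 (limma, Benjamini-Hochberg over all genes), which is 0.0468% of them. Of these, 9 were higher than in the controls (0.0421%) and 1 was lower (0.00468%). The higher genes were the chemokine gene Ccl8, the antiviral genes Oas1a, Bst2 and Ifih1, the regulator of antigen presentation Nlrc5, the macrophage gene Ms4a7, the growth factor gene Fgf9, the complement inhibitor gene Susd4 and the p53 target Trp53inp1. The gene that was lower was Eno3, the muscle form of the glycolytic enzyme enolase. In whole tissue, fewer or more cells of a type and less or more RNA per cell cannot be told apart, here and in every result that follows. The median log2 difference over all genes was -0.01, and 47.9% of the differences were positive. An unadjusted p under 0.05 was reached by 1456 genes (6.81%), 826 higher (3.86%) and 630 lower (2.95%). The 4 arrays of the 50 mg/kg group did not overlap the 5 controls for 472 genes (2.21%), lying above all of them for 261 (1.22%) and below for 211 (0.987%).

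The count rested on the full set of arrays. Leaving out replicate 12, 13, 14 or 15 at 50 mg/kg gave 2, 4, 2 or 32 genes, and leaving out control replicate 1, 2, 3, 4 or 5 gave 2, 28, 2, 2 or 3. Ccl8 and Fgf9 passed in all 9 of these fits, and each of the other 8 genes passed in 1 to 3 of them, with adjusted p up to 0.205. All 10 passed without control replicate 2, and 9 of them without replicate 15. With median centring of the log ratios in place of loess, 1 gene passed, Ccl8. A fit that held slide as a fixed block called 28 genes (0.131%), of which 25 rose and 3 fell, and these included the 10.

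**Figure D1:**
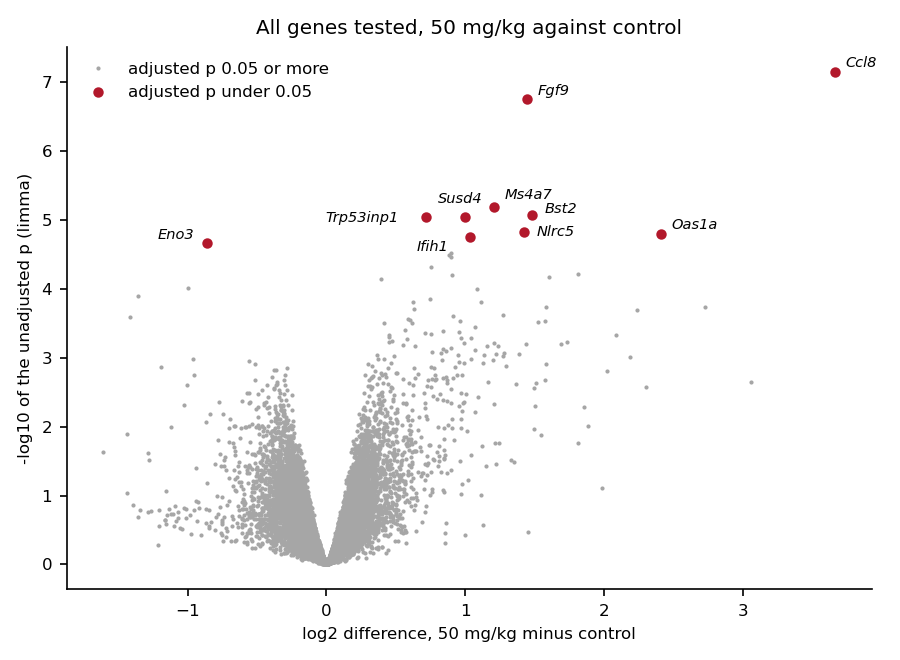
Each point is 1 of the 21382 genes tested, with the log2 difference of 50 mg/kg minus control on the horizontal axis and the -log10 of the unadjusted limma p on the vertical axis. The 10 genes with an adjusted p under 0.05 are red and named; Ccl8 has the largest log2 difference among them, 3.67, and Eno3, at -0.86, lies alone on the side of lower genes.

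The 4 genes Oas1a, Bst2, Ifih1 and Nlrc5, all known to be induced by interferons, rose by 1.04 to 2.41 on the log2 scale. Oas1a makes the short oligoadenylates that activate RNase L, an antiviral nuclease. Its log2 ratios were -0.29, -0.45, -0.60 and -1.92 in the 50 mg/kg forestomachs (replicates 12 to 15 in order), against -3.55, -2.87, -3.31, -3.08 and -3.33 in the control forestomachs (replicates 1 to 5 in order). All 4 treated arrays lay above all controls, with replicate 15 nearest to them. The difference was 2.41 ± 0.40 (SE of the fit, n = 4 and 5; limma adjusted p = 0.0416), a 5.32-fold rise, and it was 2.92, 2.67 and 1.41 within the 3 slides. The Oas1 genes are close copies, and the copy behind this probe is uncertain; a dimmer probe of Oas1a gave 1.04 ± 0.28 and missed the threshold (limma adjusted p = 0.39 over probes).

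Bst2, also called tetherin, holds budding enveloped viruses to the cell surface. It had log2 ratios of -0.53, -0.12, -0.62 and -1.09 at 50 mg/kg, against -2.18, -1.69, -2.14, -2.17 and -2.17 in the controls, and it rose by 1.48 ± 0.23 (limma adjusted p = 0.0325). The groups did not overlap, and control replicate 2 lay above the 4 other controls, which lay between -2.18 and -2.14.

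Ifih1, a sensor of long double-stranded RNA, had log2 ratios of 0.85, 0.99, 0.61 and 0.63 at 50 mg/kg, against -0.30, -0.24, -0.57, -0.17 and -0.05 in the controls. The groups were apart, and the difference was 1.04 ± 0.17 (limma adjusted p = 0.0416). Nlrc5, the transactivator of MHC class I genes, had 1.87, 2.37, 1.71 and 1.35 at 50 mg/kg, against 0.03, 0.53, 0.26, 0.47 and 0.72 in the controls. It rose by 1.42 ± 0.24 (limma adjusted p = 0.0416), again with no overlap and with replicate 15 lowest of the treated arrays. A second kept probe of Nlrc5 differed by 0.47 ± 0.12 (adjusted p = 0.311 over all probes).

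The promoters of these genes were read because interferon-stimulated response elements, control sites of many interferon-induced genes, contain the letters GAAA, any 2 bases, and GAAA again. This motif was searched on both strands in the 250 bases before the RefSeq start (RefSeq, GRCm38.p6). It was found in 2 of the 8 genes that passed and had a promoter in the table, Bst2 and Oas1a, against 3.18% of 10982 genes tested and 3.46% of all 27025 promoters. Each of the 2 promoters held a pair of matches that start 6 bases apart and so overlap, 130 and 124 bases before the start in Bst2 and 20 and 14 bases before it in Oas1a. Both are printed 5′ to 3′ on the gene's strand, with the matches in capitals, to show how close these letters lie to the start. Of 26 interferon response genes tested with a promoter, 14 held the motif (53.8%). The letters were not found in this window of Ccl8, Eno3, Fgf9, Ifih1, Ms4a7 or Susd4. A match is a description of the sequence, not a measured site. The Bst2 window is chr8:71537473-71537722 and the Oas1a window chr5:120907526-120907775, both on the minus strand.
Bst2: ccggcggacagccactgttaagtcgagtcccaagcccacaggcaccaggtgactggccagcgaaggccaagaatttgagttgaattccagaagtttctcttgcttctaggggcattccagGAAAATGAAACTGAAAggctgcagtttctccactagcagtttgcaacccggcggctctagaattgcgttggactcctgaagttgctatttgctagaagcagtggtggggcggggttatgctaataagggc
Oas1a: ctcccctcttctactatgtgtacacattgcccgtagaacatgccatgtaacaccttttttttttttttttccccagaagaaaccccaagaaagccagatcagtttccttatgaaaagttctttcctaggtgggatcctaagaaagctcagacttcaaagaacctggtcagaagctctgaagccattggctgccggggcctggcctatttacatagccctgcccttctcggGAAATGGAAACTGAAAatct

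Over the whole interferon response list, 3 of 34 measured genes rose (Bst2, Oas1a and Ifih1) and 0 fell, against the 0.0421% of all genes that rose. The median difference of the list was 0.93, against -0.01 over all genes, and 31 of the 34 were positive. An unadjusted p under 0.05 was reached by 25 of the 34, all higher, and 10 had treated arrays above all controls. Over all genes these shares were 3.86% and 1.22%. Isg15, a ubiquitin-like antiviral protein, averaged 0.59 ± 0.81 at 50 mg/kg and -1.65 ± 0.72 in the controls (SD, n = 4 and 5), a difference of 2.24 that did not pass (limma adjusted p = 0.152). Iigp1, an interferon-inducible GTPase, differed by 1.59 (adjusted p = 0.151), and Ifit3, which binds foreign RNA, by 1.09 (adjusted p = 0.106). Isg15 and Iigp1 were chosen for naming after their values were seen, and Iigp1 belongs to a family of similar copies.

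The means of this list by array were 1.17, 1.49, 0.90 and 0.23 above the control mean in the 50 mg/kg group, against -0.13, 0.45, -0.08, 0.08 and -0.32 in the controls. Replicate 15 thus lay below control replicate 2 and above the 4 other controls. Without replicate 15, 13 of the 34 genes passed, against 32 of 21382 over all genes, and the median was 1.16. Without control replicate 2, 6 of the 34 passed, against 28 of 21382, and the median was 1.01. Without any other single array 0 passed (limma), while the median lay between 0.79 and 0.98. In these fits 23 to 26 of the 34 had an unadjusted p under 0.05. Over all genes that p was reached by 989 to 2049 of 21382, in either direction.

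Replicate 15 was also the lowest treated array in genes of antigen presentation. Of 17 measured, Nlrc5 rose and 0 fell, against the 0.0421% of all genes that rose. All 17 were positive, against 47.9% of all genes, with a median of 0.81. At an unadjusted p under 0.05, 9 were higher, against 3.86% of all genes. Psmb9, a subunit of the immunoproteasome, averaged 0.39 ± 0.94 at 50 mg/kg and -1.12 ± 0.76 in the controls (SD). B2m, the light chain of MHC class I, averaged -0.57 ± 0.80 at 50 mg/kg and -1.64 ± 0.44 in the controls. Both were chosen for naming after their values were seen, and neither passed (limma adjusted p = 0.352 and 0.498). The classical heavy chain gene H2-K1 had 1.38, 1.82, 1.33 and -0.01 at 50 mg/kg, against -0.38, 0.58, -0.31, -0.06 and -0.58 in the controls, so replicate 15 lay within the controls. Its difference was 1.28 ± 0.32 (adjusted p = 0.268). Without replicate 15, H2-K1 and H2-T23 passed (adjusted p = 0.0178 and 0.0342). The list's mean was 0.85 above the control mean on control replicate 2, against -0.318 to -0.075 on the other controls. Without that array 16 of the 17 genes had an unadjusted p under 0.05, against 1467 of 21382 over all genes in either direction. H2 genes are close copies of each other, and the copy behind each probe is uncertain.

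**Figure D2:**
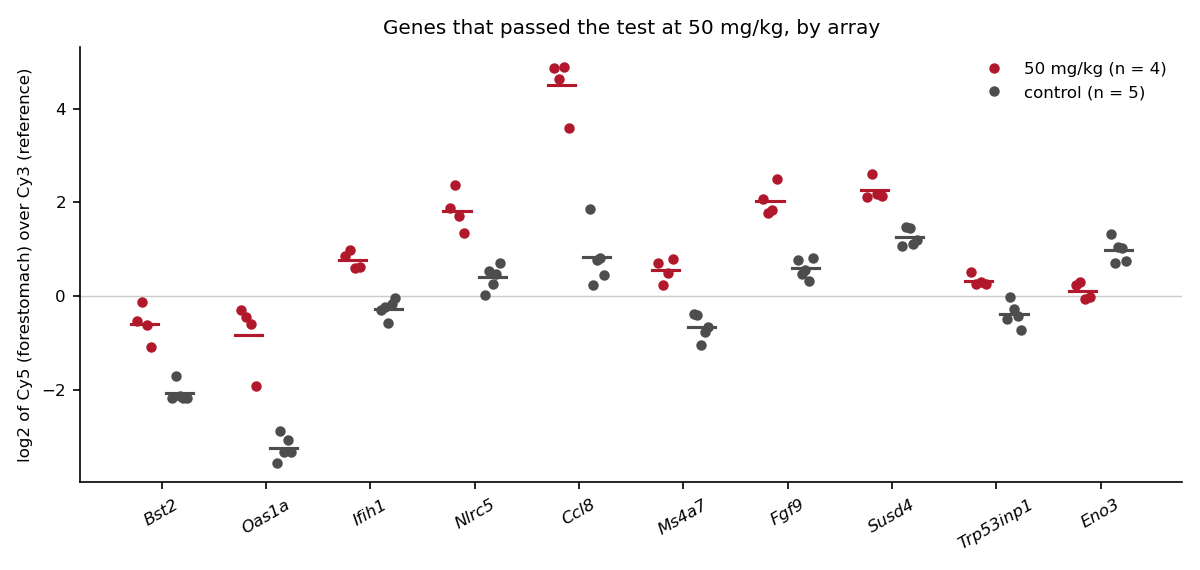
The log2 ratio of forestomach (Cy5) over reference RNA (Cy3) is plotted for each array and each of the 10 genes that passed, with 50 mg/kg in red left of control in grey and a bar at each group's mean. The groups do not overlap for any of the 10 genes, and replicate 15 of the 50 mg/kg group is the lowest treated point for Oas1a, Bst2, Nlrc5 and Ccl8.

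Ccl8 and Ms4a7, genes of monocyte attraction and of macrophages, rose together with the antiviral genes. Ccl8 encodes a CC chemokine that draws monocytes and T cells. It had log2 ratios of 4.87, 4.63, 4.89 and 3.59 at 50 mg/kg, against 1.85, 0.24, 0.77, 0.81 and 0.45 in the controls. Every treated array lay above every control, and the rise of 3.67 ± 0.40 was 12.7-fold (limma adjusted p = 0.0015), with 3.82, 3.97 and 3.14 within the slides. Of 13 inflammatory cytokine and chemokine genes measured, Ccl8 was the one that rose and 0 fell, with a list median of 0.09. Over all genes 0.0421% rose. The neighbouring chemokine Ccl12 differed by 1.12 ± 0.23 (adjusted p = 0.139) with treated arrays above all controls, and it passed with slide as a block (adjusted p = 0.048). Ccl2, the main attractant of inflammatory monocytes, differed by 0.09 and Ccl5 by 0.18; both were chosen for naming after their values were seen.

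Ms4a7 encodes a membrane-spanning protein of macrophages. It had 0.71, 0.25, 0.50 and 0.80 at 50 mg/kg, against -0.37, -0.40, -1.04, -0.76 and -0.67 in the controls, and rose by 1.21 ± 0.19 (limma adjusted p = 0.0325) with no overlap. It was the one of 14 macrophage and dendritic cell genes that rose, against 0.0421% of all genes, and 0 fell. The list's median was 0.38, and 5 were higher at an unadjusted p under 0.05, against 3.86% of all genes. Lyz2, a lysozyme of myeloid cells, differed by 0.78 ± 0.22 (adjusted p = 0.337) and Adgre1, the macrophage antigen F4/80, by 0.57 ± 0.22 (adjusted p = 0.664), while Csf1r, the receptor for macrophage growth factor, differed by -0.17. The list's mean by array spanned 0.29 to 0.53 at 50 mg/kg and -0.31 to 0.75 in the controls, the top value being control replicate 2. Without that array all 14 genes were positive, the median was 0.60, and Ms4a7 and Adgre1 passed, with 28 of 21382 passing over all genes. A dimmer probe of Adgre1 gave 0.07 ± 0.14 with all arrays, so its probes disagree.

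Of 7 T and NK cell genes and 6 B cell and plasma cell genes, 0 passed and 0 reached an unadjusted p under 0.05, with medians of -0.10 and -0.45. Both signs turned without control replicate 2: the T and NK cell median was then 0.0235, with 1 gene at an unadjusted p under 0.05, and the B cell median 0.31, with 4 of 6 positive. Without replicate 15 the T and NK cell median was 0.00847, and over the fits that left out another array the B cell median lay between -0.973 and -0.245. The T and NK cell mean by array spanned -0.50 to 0.23 at 50 mg/kg and -0.55 to 0.95 in the controls. Cd8a was well above background on 0 of 4 treated arrays and 1 of 5 controls. Of 5 neutrophil genes 0 passed, and their mean spanned -0.45 to 0.03 at 50 mg/kg and -0.39 to 1.20 in the controls; their median was -0.193, and -0.0212 without control replicate 2. S100a8 and S100a9, alarmins of neutrophils and of stressed keratinocytes that were counted with the keratins, differed by 1.13 ± 0.98 (adjusted p = 0.869) and 1.89 ± 0.65 (adjusted p = 0.594), with overlapping groups. The part of cell composition in the interferon result was not tested.

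Fgf9 and Susd4, a growth factor gene and a complement inhibitor gene, also rose. Fgf9, a growth factor through which epithelia signal to the mesenchyme in development, had 2.07, 1.77, 1.83 and 2.49 at 50 mg/kg, against 0.78, 0.48, 0.57, 0.32 and 0.82 in the controls. Its rise was 1.45 ± 0.17, or 2.73-fold (limma adjusted p = 0.00185), and it was 1.43, 1.36 and 1.67 within the slides. Susd4, a membrane protein that inhibits complement activation, had 2.12, 2.60, 2.18 and 2.14, against 1.07, 1.47, 1.45, 1.11 and 1.19 in the controls, a rise of 1.00 ± 0.16 (limma adjusted p = 0.0325). Neither gene's groups overlapped, and replicate 13 was the highest Susd4 value.

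Among p53 targets, Trp53inp1 rose and the classic markers of arrest did not pass. Trp53inp1, a stress protein that p53 induces in apoptosis and autophagy, had 0.51, 0.26, 0.30 and 0.26 at 50 mg/kg, against -0.48, -0.01, -0.27, -0.42 and -0.73 in the controls. The groups did not overlap, and the difference was 0.72 ± 0.11 (limma adjusted p = 0.0325). A second kept probe of the gene differed by -0.01 ± 0.10, so the 2 probes disagree and the rise rests on the brighter one.

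Of 12 p53 targets of apoptosis measured, 1 rose, 0 fell, 5 were higher at an unadjusted p under 0.05, and the median was 0.19. Over all genes 0.0421% rose and 3.86% were higher at an unadjusted p under 0.05. Pmaip1, also known as Noxa, differed by 0.75 ± 0.14 (adjusted p = 0.0736); it was well above background on 4 of 4 treated arrays and 1 of 5 controls, so its size rests on control signals near background. Bax, the pore-forming effector of mitochondrial apoptosis, had -0.53, -0.61, -0.60 and -0.51 at 50 mg/kg, against -0.81, -1.16, -0.80, -1.03 and -0.84 in the controls. Its 4 treated arrays lay above all controls, but the difference of 0.37 ± 0.09 did not pass (adjusted p = 0.268). Pmaip1 passed with slide as a block (adjusted p = 0.0316) and without control replicate 2 (adjusted p = 0.00513), and Bax passed in 0 of 20 other settings.

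Of 18 p53 targets of arrest and feedback, 0 passed and the median was 0.14. At an unadjusted p under 0.05, 3 were higher, against 3.86% of all genes. Cdkn1a, the cell cycle inhibitor p21, differed by 0.29 ± 0.19 with overlapping groups, and Ccng1, cyclin G1, by 0.58 ± 0.19 (adjusted p = 0.538). Mdm2, which degrades p53, differed by -0.09 ± 0.14, a sign that turned under 3 of the settings run. Of 22 DNA repair and bypass genes 0 passed, with a median of -0.05. The largest difference there was that of Mgmt, which removes alkyl groups from guanine, at 0.90 ± 0.16 (adjusted p = 0.0562); its treated arrays, -0.54 to 0.36, lay above all controls, -1.27 to -0.76, and it passed with slide as a block (adjusted p = 0.0316). Of 23 proliferation and mitosis genes 0 passed and 0 reached an unadjusted p under 0.05, with a median of 0.04. The median was 0.171 without control replicate 2, with 19 of 23 positive and 1 at an unadjusted p under 0.05, and it was -0.0342 without control replicate 4 and -0.0679 without control replicate 5. It was 0.00762 without replicate 12, 0.0174 without replicate 14, and 0.203 with median centring, where the median over all genes was 0.0837. Top2a, a topoisomerase of dividing cells, differed by 0.17 ± 0.21 (adjusted p = 0.911).

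The receptor's own target genes gave 0 calls at 50 mg/kg. Of 15 AHR battery genes measured, 0 passed and the median was 0.00. At an unadjusted p under 0.05, 3 were higher and 1 lower, against 3.86% and 2.95% of all genes. Cyp1a1, the standard marker of AHR activation, had log2 ratios of 0.11, 0.26, 0.02 and 0.32 at 50 mg/kg, against 0.53, -0.04, 0.25, 0.80 and 0.14 in the controls. It was not well above background on any treated array and was so on 2 of 5 controls, and its difference was -0.16 ± 0.18 (adjusted p = 0.901). Cyp1b1, the extrahepatic enzyme of the family, was well above background on all 9 arrays and differed by -0.46 ± 0.20 (adjusted p = 0.722). These values come from 72 hours after dosing ended and hold no information on earlier hours.

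Other members of the battery did not pass either. Ahrr, the repressor of the receptor, differed by 0.29 ± 0.18, Tiparp, another feedback gene, by -0.11 ± 0.12, and Nqo1, a quinone reductase, by 0.15 ± 0.13; the groups overlapped for all 3 genes. Gsta1, a glutathione transferase that conjugates diol epoxides, had 4.82, 4.35, 4.19 and 5.24 at 50 mg/kg, against 3.83, 3.18, 3.36, 3.51 and 4.33 in the controls. Its difference of 1.01 ± 0.30 did not pass (adjusted p = 0.397), the groups overlapped, and Gsta1 and Gsta2 are near-identical copies. Of 24 NRF2 and glutathione genes 0 passed, with a median of 0.04. Gstm2 differed most by its p, 0.45 ± 0.10 (adjusted p = 0.22), with treated arrays above all controls, while dimmer probes of Gstm2 gave 0.46 ± 0.20 and 0.00093 ± 0.09. Of 16 other genes of benzo(a)pyrene metabolism 0 passed and 4 were lower at an unadjusted p under 0.05, against 2.95% of all genes. Among them was Cyp4b1, a lung and epithelial P450, at -0.96 ± 0.26 (limma adjusted p = 0.335). The AHR core letters GCGTG stood in the same 250-base window of 6 of 12 AHR battery genes tested (50%) and of 46.7% of all genes tested.

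Keratins and alarmins of thickened or wounded epithelium had the highest median of the lists, 1.34, but 0 of the 16 measured passed; with processed signals their median was 1.19 and that of interferon response genes higher, 1.56. At an unadjusted p under 0.05, 11 were higher and 1 was lower, against 3.86% and 2.95% of all genes. Treated arrays lay above all controls for 7 of the 16, against 1.22% of all genes. Krt16, a keratin of activated keratinocytes, had 5.79, 2.67, 2.99 and 3.71 at 50 mg/kg, against 2.12, 0.22, 0.56, 0.48 and 1.91 in the controls. The groups did not overlap, replicate 12 lay far above the other treated arrays, and the difference was 2.73 ± 0.57 (limma adjusted p = 0.151). With slide as a fixed block Krt16 passed, at 2.85 (limma adjusted p = 0.0316). The differences of Krt16 within the slides were 4.61, 2.31 and 1.79. Krt6a had 3.75, 0.34, 0.81 and 2.04 at 50 mg/kg, against 0.43, -0.01, 0.01, -0.01 and 0.52 in the controls. Its groups overlapped, replicate 12 was again highest, and it did not pass. Over the 9 fits that left out an array its difference ranged from 0.87 to 2.01, and 0 of them passed.

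Defb14, a beta-defensin of keratinocytes, had 5.65, 4.68, 4.51 and 5.57 at 50 mg/kg, against 3.89, 2.55, 3.54, 2.74 and 3.72 in the controls. It differed by 1.81 ± 0.34 (limma adjusted p = 0.0833) and passed with slide as a block (adjusted p = 0.0382). Over the 20 other settings the difference of Defb14 ranged from 0.40 to 2.01, with limma adjusted p up to 0.969. With single arrays left out it ranged from 1.63 to 2.01. Serpinb3c, a protease inhibitor of squamous epithelium, had 8.00, 7.04, 7.56 and 8.46, against 6.58, 6.21, 6.09, 5.76 and 6.15 in the controls, and differed by 1.61 ± 0.30 (adjusted p = 0.0833 without the slide block and 0.0293 with it). Stfa1, a stefin that inhibits cysteine proteases, averaged 3.56 ± 2.36 at 50 mg/kg and 0.49 ± 0.16 in the controls (SD). Its difference of 3.06 ± 0.85 was the largest of the list and did not pass (adjusted p = 0.351), and it was well above background on 3 of 5 controls. The Serpinb3 and Stfa genes are near-identical copies, and Serpinb3c and Stfa1 were chosen for naming after their values were seen.

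The list's mean by array was 2.46, 0.86, 0.68 and 1.31 above the control mean in the 50 mg/kg group, against -0.36 to 0.18 in the controls. Without replicate 12 the median was 1.01 and 7 of the 16 genes were higher at an unadjusted p under 0.05. Over all genes 989 of 21382 reached that p in the same fit, in either direction. The ordinary keratins differed little: Krt5 by -0.02 ± 0.14 and Krt14 by -0.01 ± 0.19, the sign for Krt5 turning under 5 of the settings that kept all arrays. Of 12 basal keratinocyte genes and 27 suprabasal and cornified genes 0 passed, with medians of -0.02 and 0.08. Sprr1b, which is cross-linked into the cornified envelope, differed by 1.85 ± 0.58 (adjusted p = 0.469), with overlapping groups. Chil4, a chitinase-like protein, was not well above background on any control. Measured against the lowest signal well above background in the Cy5 channel, or its own signal where higher, it was at least 4.19-fold higher at 50 mg/kg, a bound open to dye bias, and it did not pass (adjusted p = 0.363). Its log2 ratios at 50 mg/kg were 4.32, 2.92, 1.00 and 1.42, highest on replicate 12, and its fitted log2 difference was 2.30, against 1.66 without that array. With processed signals Chil4 passed (adjusted p = 0.00968). Arg1, arginase of keratinocytes and macrophages, differed by 1.69 ± 0.40 (adjusted p = 0.237), with treated arrays above all controls.

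**Figure D3:**
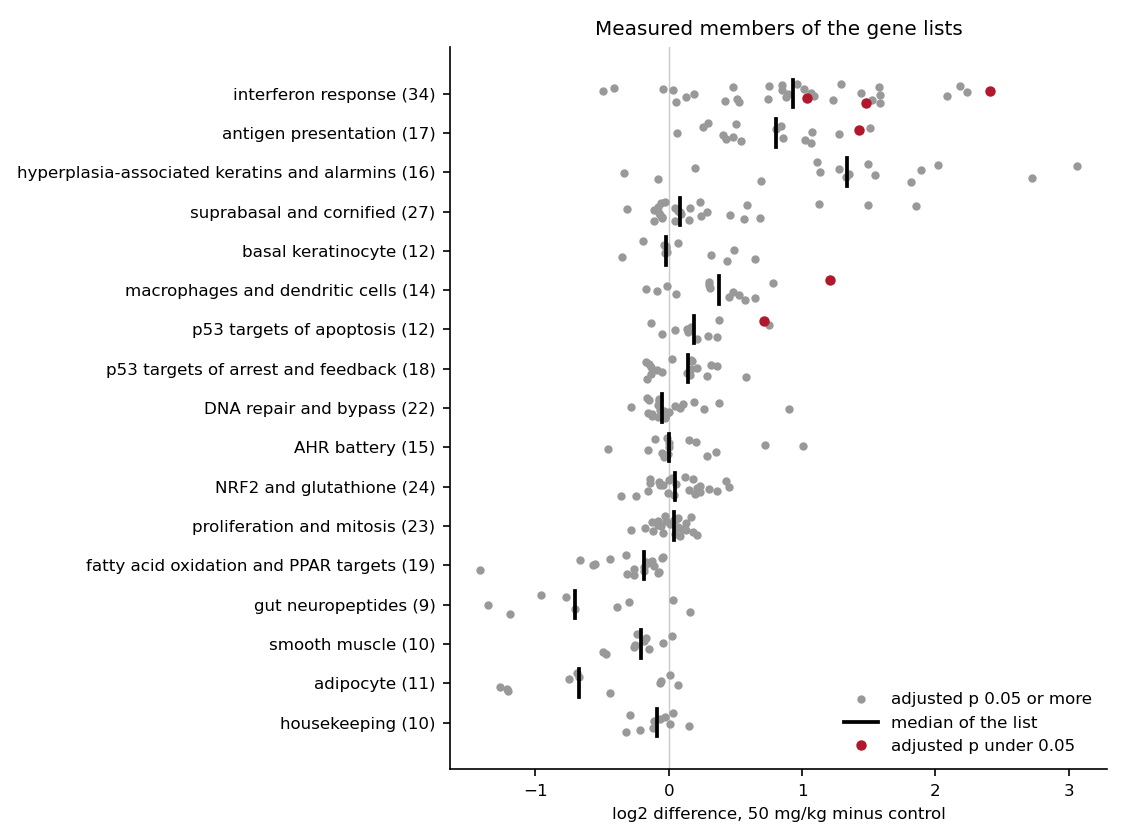
Each point is 1 measured gene of a list, placed by its log2 difference of 50 mg/kg minus control, with the number of measured genes beside the list's name and a black bar at the list's median. Keratins and alarmins, interferon response and antigen presentation have medians of 1.34, 0.93 and 0.81, while gut neuropeptides and adipocyte genes are at -0.70 and -0.68, the adipocyte median moving to -0.227 without control replicate 1, and red points mark genes that passed.

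Eno3 was the only gene called lower. It had 0.23, 0.31, -0.06 and -0.01 at 50 mg/kg, against 1.32, 0.71, 1.06, 1.04 and 0.75 in the controls, with no overlap. It fell by 0.86 on the log2 scale (SE 0.15, limma adjusted p = 0.0455), and within the slides the differences were -0.78, -0.92 and -0.76. Eno3 passed in 1 of the 9 fits that left out an array (adjusted p up to 0.199). Of the 4 other striated muscle genes measured, 0 passed: Myh2, a fast myosin heavy chain, differed by -0.39 ± 0.55, Acta1 by -0.19 ± 0.56, Tnnt3 by -0.05 ± 0.29 and Ckm by -0.0024. The mean of the 5 genes spanned -0.76 to 0.32 at 50 mg/kg and -0.27 to 0.64 in the controls.

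The next genes by p on the lower side did not pass. Grp, gastrin-releasing peptide, had 2.20, 2.18, 1.78 and 2.33 at 50 mg/kg, against 3.35, 3.99, 2.81, 3.35 and 3.88 in the controls. Its difference of -1.36 ± 0.27 had an adjusted p of 0.131 (limma), the groups were apart, and with slide as a block it passed (adjusted p = 0.0301). Tac1, which encodes substance P, differed by -0.96 ± 0.24 (adjusted p = 0.279), also with no overlap. Cartpt, another neuropeptide gene of the gut wall, differed by -1.19 ± 0.31 (adjusted p = 0.306) with overlapping groups and passed with the slide block (adjusted p = 0.0301). Of 9 gut neuropeptide genes measured 0 passed, 6 were lower at an unadjusted p under 0.05 and 5 had treated arrays below all controls, against 2.95% and 0.987% of all genes; the median was -0.70. Beside them, 9 of 10 smooth muscle genes of the gut wall were negative, with a median of -0.21 and 0 at an unadjusted p under 0.05. But with median centring 5 of 10 were negative and the median was 0.02, against 0.0837 over all genes. The part of smooth muscle in the neuropeptide values was not tested. Penk, the enkephalin precursor, and Chga, chromogranin A, differed by 0.04 and 0.16. Of 9 genes of enteric nerve and glia 0 passed, with a median of -0.22, and the neuronal marker Uchl1 differed by -0.23 ± 0.15. Syt1, a calcium sensor of neurotransmitter release, had 0.49, 0.91, 0.40 and 0.85 at 50 mg/kg, against 1.65, 1.77, 1.61, 1.66 and 1.59 in the controls, a difference of -0.997 ± 0.20 (adjusted p = 0.106).

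Of 19 genes of fatty acid oxidation and PPAR targets 0 passed. All 19 differences were negative, with a median of -0.19. At an unadjusted p under 0.05, 6 were lower, against 2.95% of all genes. But with median centring in place of loess 13 of 19 were negative, the median was -0.02 and 2 reached that p. Over all genes the median in that setting was 0.0837, and 463 of 21382 reached that p in either direction. Angptl4, a PPAR target that inhibits lipoprotein lipase, had -0.91, -0.20, -0.79 and -0.54 at 50 mg/kg, against 0.55, 0.81, 0.77, 1.12 and 0.78 in the controls. The groups were apart and the difference was -1.42 ± 0.31 (limma adjusted p = 0.178). Acadm, the medium-chain acyl-CoA dehydrogenase of mitochondria, differed by -0.31 ± 0.10 (adjusted p = 0.455), with treated arrays below all controls. Adipocyte genes varied between animals: Adipoq, the fat-cell hormone adiponectin, had -0.10, 0.05, 2.42 and 2.84 at 50 mg/kg, against 4.37, 0.09, 1.70, 4.12 and 2.27 in the controls, and was well above background on 2 of 4 and 4 of 5 arrays. The median of 11 adipocyte genes was -0.68 and 0 passed. It was -0.296 without replicate 12, -0.258 without replicate 13, -0.227 without control replicate 1 and -0.362 without control replicate 4. With median centring it was -0.399, against 0.0837 over all genes. The stricter filter on dim probes left 6 of the 11 genes, with a median of -0.0625. The part of attached fat in the lipid genes was not tested.

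**Figure D4:**
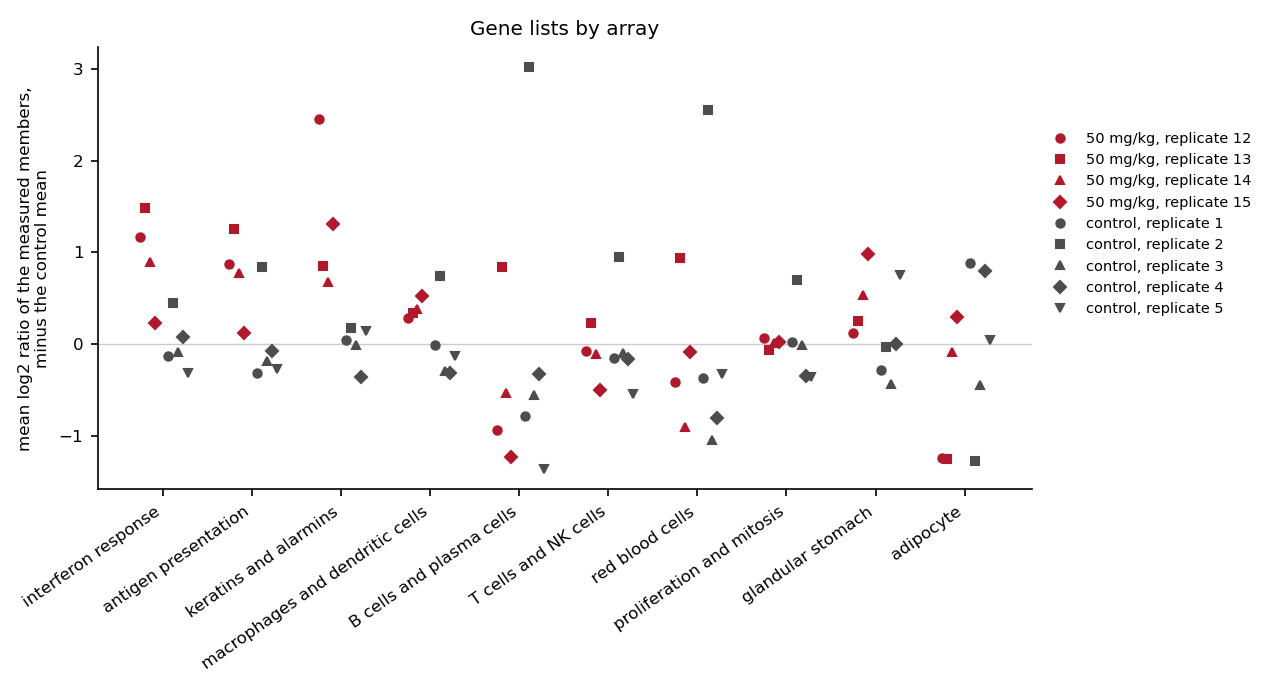
For 10 gene lists the mean log2 ratio of the measured members on each array, minus the mean of the controls, is shown with 50 mg/kg in red left of control in grey and a symbol per replicate. Control replicate 2 stands out in B cells (3.02) and red blood cells (2.55), replicate 12 in keratins and alarmins (2.46), and replicate 15 is the lowest treated array in interferon response (0.23).

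The fixed slide block added 18 genes to those that passed without it, 16 higher and 2 lower, of which 14 had a gene symbol. All were chosen for naming after their values were seen, by this criterion. Beside Krt16, Defb14, Serpinb3c, Ccl12, Pmaip1, Mgmt, Grp and Cartpt, they were Mlkl, Emb, Pgbd5, Ms4a4d, Ppp2r2c and Glb1l2. Mlkl, the executor of necroptosis, had 0.29, 0.61, 0.19 and 0.38 at 50 mg/kg, against -0.51, -0.98, -0.21, -0.66 and -0.31 in the controls. The groups did not overlap, and the difference was 0.90 ± 0.16 (adjusted p = 0.0562 without the block and 0.0317 with it). Ms4a4d, a relative of Ms4a7, differed by 0.84 ± 0.20 and was well above background on 4 of 4 treated arrays and 2 of 5 controls.

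The 3 doses were each set against the same 5 controls, so their differences are not independent of each other. At 25 mg/kg 3 genes passed (0.014%), all higher, and at 75 mg/kg 236 passed (1.1%; 10.1% at an unadjusted p under 0.05), 191 higher (0.893%) and 45 lower (0.21%). Oas1a differed by 1.28, 2.41 and 3.26 at 25, 50 and 75 mg/kg, Bst2 by 0.60, 1.48 and 1.75, and Ifih1 by 0.45, 1.04 and 1.42. At 25 mg/kg these 3 genes did not pass (limma adjusted p = 1.00 each), and at 75 mg/kg they did (adjusted p = 0.000933, 0.00142 and 0.000933). Fgf9 differed by 1.39, 1.45 and 1.64 and Susd4 by 1.05, 1.00 and 1.09 at the 3 doses, and both genes passed at each dose. The step between 50 and 25 mg/kg was 0.06 for Fgf9 and -0.05 for Susd4, and that between 75 and 50 mg/kg 0.20 and 0.09. Ccl8 also passed at each dose, with 2.66, 3.67 and 3.96. Trp53inp1 differed by 0.23, 0.72 and 0.83, Ms4a7 by 0.68, 1.21 and 1.45, and Eno3 by -0.40, -0.86 and -1.39.

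The steps between doses were tested directly. Between 50 and 25 mg/kg 0 of 21382 genes passed (limma; 482, or 2.25%, at an unadjusted p under 0.05), and 0 passed with slide as a block or with median centring. Between 75 and 50 mg/kg 0 passed as well (587, or 2.75%, unadjusted; smallest adjusted p = 0.187), again also in those 2 settings. The smallest p-values of that step were those of Grip1, a synaptic scaffold protein, with 0.95, and of Zfp608, a zinc finger protein, with -0.79. Grip1 had 1.64, 1.43, 1.48 and 1.55 at 50 mg/kg, against 0.76, 0.76, 0.85, 0.73 and 0.78 in the controls; the groups were far apart, yet 0.75 ± 0.15 did not pass (adjusted p = 0.136), and the difference at 75 mg/kg was 1.70. Keratins and alarmins had medians of 0.69, 1.34 and 2.07 at 25, 50 and 75 mg/kg, interferon response genes 0.34, 0.93 and 1.40, and gut neuropeptides 0.01, -0.70 and -0.68. Differences between these medians were not tested.

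**Figure D5:**
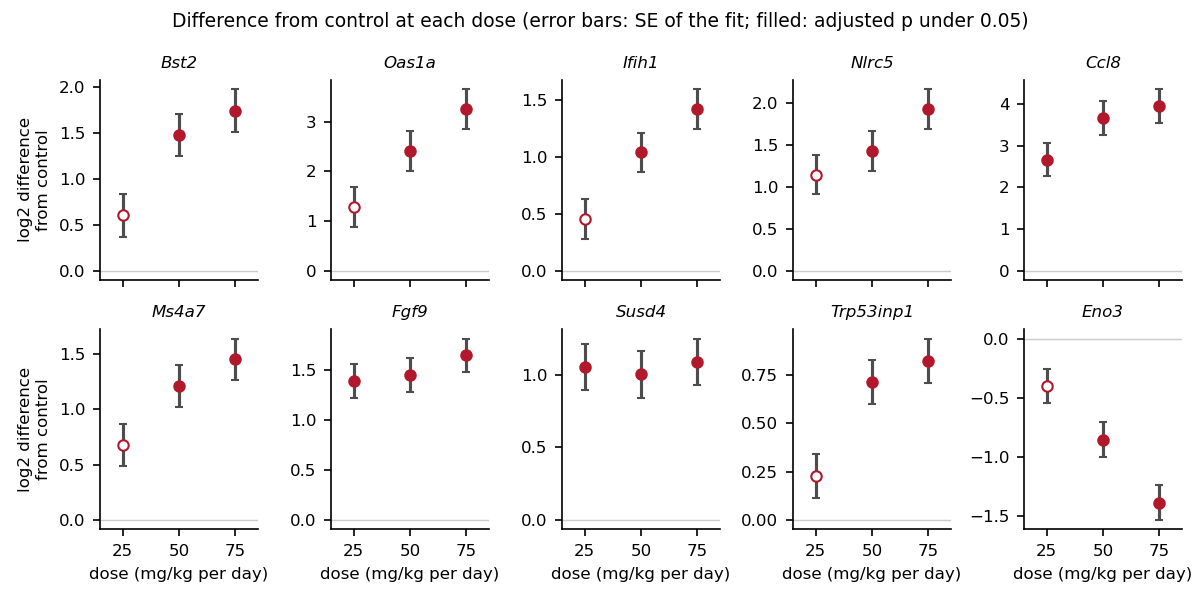
For each of the 10 genes that passed at 50 mg/kg, the log2 difference from control is plotted at 25, 50 and 75 mg/kg per day with its standard error, filled where the adjusted p was under 0.05. Ccl8, Fgf9 and Susd4 are filled at all 3 doses, the other 7 genes at 50 and 75 mg/kg.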

How the data were processed

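Whole-genome 2-colour Agilent arrays of 17 forestomach samples were used, 4 at 50 mg/kg and 5 controls in the comparison. The deposited files hold spot intensity values that the authors obtained in Feature Extraction 10.7.3.1 (source: per the file headers). The deposited series table holds the authors' log2 ratios. Against each array's scanner values it correlated at 0.998 to 0.999 with loess ratios without background correction, with column medians of -0.03 to -0.02, so its direction is Cy5 over Cy3; its normalization is not given in the sources used here.

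Median spot signals were corrected with normexp (offset 50) on the median local background, in place of the mean signals, which were not used here, then loess-normalized within arrays (control spots had weight 0). Of 62976 spots, 3671 control spots and outlier-flagged spots were left out, and spots of a probe were averaged. A probe was kept if its Cy5 signal stood well above background on 4 or more of 17 arrays (27574), with the brightest probe per gene (21382 genes). Of 55681 probes, 26413 have 1 gene symbol, 29268 none and 0 several, and 13854 tested genes have a symbol. Symbols, some old in the array design, were updated through transcripts in the RefSeq table of GRCm38.p6. A linear model of 4 group means was fitted to all 17 arrays with lmFit and eBayes (limma 3.58.1, R 4.3.3), with Benjamini-Hochberg adjustment over all genes; all adjusted p-values are limma's, and the model scripts were tested on simulated data. Other tools were data.table (1.17.8), python 3.11.15 and matplotlib 3.10.9. A gene that no array of a group measured above background got a bound from the lowest signal well above background, open to dye bias without swaps.

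The members and the 39 gene lists (607 genes) were chosen with earlier results of these data known. Named were up to 15 passing genes in each direction or, where fewer than 5 passed, the 5 smallest p; up to 4 smallest p per list and its passing members up to 8; 17 fixed genes of the AHR, p53, keratin and proliferation groups, of which Cyp1a2 has no value here; and up to 6 smallest p of each step between doses. Alternatives were no background correction, median centring, processed signals, the series table, Cy5 alone, other filters, mean of probes, slide as a fixed or random block (consensus correlation 0.223), the compared groups alone, and each array left out. The groups share no replicate numbers, so no pairing was used. 1 gene of the interferon list is not reported here by name.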

Additional observations from a re-analysis of the deposited data

Results flagged for a closer look

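In 17 of 184 groups of 4 or 5 arrays, 1 array lay far from the others by Dixon's criterion, which chance meets in about 1 of 20 groups. Control replicate 2 was high in 7 of them. Its Bst2 log2 ratio was -1.69, against -2.18 to -2.14 on the other controls, and its ratio of Mki67, a marker of cycling cells, was -0.82, against -3.49 to -2.74. Its list means above the control mean were 3.02 for B cells and plasma cells, 2.55 for red blood cells, 1.2 for neutrophils, 0.846 for antigen presentation and 0.745 for macrophages and dendritic cells.

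Replicate 15 of the 50 mg/kg group had 1.01 for Emb, a cell adhesion gene, against 0.357 to 0.402 on the other treated arrays, 0.127 for Gal, the neuropeptide galanin, against -0.192 to -0.141, and -0.894 for Mdm2, against -0.492 to -0.476. Its mean of benzo(a)pyrene metabolism genes was 0.049, against -0.287 to -0.279. Replicate 13 had 2.6 for Susd4, against 2.12 to 2.18, 1.55 for Gstm2, against 1.69 to 1.7, and a smooth muscle mean of 0.067, against -0.368 to -0.295. Among the controls, replicate 5 had 0.655 for Gal, against 0.139 to 0.243, replicate 3 a striated muscle mean of 0.637, against -0.268 to -0.084, and replicate 1 a circadian clock mean of -0.339, against 0.039 to 0.173.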

How the results depend on the processing

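Of the 10 genes, all passed without background correction, with the series table (13 passed), with the stricter filter on dim probes (13) and with slide as a fixed (28, 25 higher and 3 lower) or random block (21, 19 higher and 2 lower). Fewer passed with median centring (1 higher, 0 lower), no filter on dim probes (6, 0 lower; more genes tested) and the mean of a gene's probes (6, 0 lower). Processed signals called 10 (0 lower), Cy5 alone 12 (2 lower) and the compared groups alone 11 (2 lower), sharing 6, 6 and 7 with the 10. The cause of these differences between settings was not tested. Leaving out 1 array gave 2 to 32 genes, 2 to 32 higher and 0 to 2 lower. Ccl8 passed in all 20 settings and Fgf9 in 19. Signs were followed over the settings for 53 genes only, not for the other genes named. Among the 53 they turned for 3 genes far from the threshold. Krt5 turned with median centring (0.26), processed signals (0.014), the series table (0.013), Cy5 alone (0.24) and the mean of probes (0.19). It also turned with single arrays left out (-0.0898 to 0.0934). Mki67 turned with median centring (0.14), processed signals (0.0083), the slide block (0.025) and single arrays left out (-0.30 to 0.37). Mdm2 turned with median centring (0.13), processed signals (0.049) and single arrays left out (-0.17 to 0.015). With median centring the median over all genes was 0.0837. Signal near background limits Pmaip1, Stfa1, Chil4 and Cyp1a1. No paired analysis was possible because the groups share no replicate numbers.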

Other observations

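Other groups gave 0 calls at 50 mg/kg (limma). Of 13 circadian clock genes, 10 were positive with a median of 0.21, and Dbp, an output gene of the clock, differed by 1.22 ± 0.53 (adjusted p = 0.722). Of 8 mast cell and eosinophil genes 7 were positive with a median of 0.23, the mast cell protease gene Cpa3 differing by 0.84 ± 0.46 (adjusted p = 0.786). Of 10 glandular stomach genes 8 were positive with a median of 0.19, and Tff1 differed by 1.99 ± 1.05 (adjusted p = 0.78), with overlapping groups. Among 16 fibroblast and matrix genes the median was -0.04: Lum, a collagen-binding proteoglycan, differed by 0.85 ± 0.33 (adjusted p = 0.686) and Fn1, fibronectin, by -0.66 ± 0.27 (adjusted p = 0.7). Of 14 genes altered in squamous tumours 12 were positive, with a median of 0.08 and 0 at an unadjusted p under 0.05. Dbp, Cpa3, Tff1, Lum and Fn1 had the smallest p or the largest difference of their lists.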
